A study of Mus musculus with 3 samples.

Results

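The cells described here are head mesoderm cells with the transcripts of cranial pharyngeal muscle progenitors. They were selected from sorted mouse embryo cells by raw counts of unique molecular identifiers (UMIs), each of which marks 1 captured RNA molecule. A cell was a member if it held at least 1 UMI of Tcf21, at least 2 UMIs of Msc, Tlx1 and Lhx2 together and at least 1 UMI of Tbx1. It also had to hold no UMI of the proepicardial and mesothelial genes Wt1 and Upk3b, and fewer than 50 UMIs of the heart muscle genes Myl7, Tnnt2, Ttn and Myl4 per 10000. The rule took 288 of 14777 cells (1.95%), 191 of them from controls and 97 from mutants.

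The study labelled early mesoderm and its descendants with Mesp1-Cre, which is active in nascent mesoderm, and the Ai9 reporter, which then marks a cell and its progeny with tdTomato. Embryos on a C57BL/6 background were dissociated, tagged with lipid-anchored sample barcodes (MULTI-seq), pooled, sorted for the reporter and captured on the 10x Chromium platform. Every embryo group used here carried Mesp1-Cre, Ai9 and at least 1 floxed Wls allele: Wls fl/+ or Wls fl/fl, at embryonic days 8.0, 8.5 and 9.5 (E8.0, E8.5, E9.5). The deposited cell table calls the genotypes wildtype and knockout, and these were taken to be Wls fl/+ (controls) and Wls fl/fl (mutants), a match that is assumed and not stated. Wls carries Wnt ligands to the cell surface, so the mutant mesoderm lacks a gene needed for Wnt secretion. On this reading the controls have themselves lost 1 Wls copy in the Mesp1 lineage, cells outside that lineage keep Wls, and how many embryos stand behind a barcode is not given in the sources used here.

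The muscles of the jaw and upper neck come from pharyngeal mesoderm of the branchial arches, a mesoderm that also supplies the second heart field. In textbook accounts Tbx1 and Isl1 act early in these progenitors, Tcf21 (capsulin) and Msc (MyoR) act upstream of the muscle determination genes Myf5 and Myod1, and Lhx2 and Tlx1 mark the arch mesoderm core. Unlike somites, this mesoderm does not use Pax3 to start its muscle programme.

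There were 61 members at E8.0 (26 control and 35 mutant), 75 at E8.5 (61 and 14) and 152 at E9.5 (104 and 48). They came from 19 of 22 barcode samples, and the median member held 21221 UMIs (range 3026 to 55037) against 21754 in the other cells. Tests between conditions used the 13 barcode samples with at least 10 members, which hold 272 members and between 105784 and 1454764 UMIs each. These were 2 control and 2 mutant samples at E8.0, 1 and 1 at E8.5, and 4 and 3 at E9.5. A level below, in CPM, is the number of UMIs of a gene per 1000000 UMIs summed over the members of 1 barcode sample. Such a level cannot tell fewer cells with a gene from less of its RNA per cell. Nothing in the sources used here says that barcode samples are separate litters, so p-values measure the spread between barcode samples. The libraries belong to 3 sequencing runs: all E8.0 samples were in run 1 and all E8.5 samples in run 2, where the only other tested sample was the E9.5 control Bar4. Of the cell barcodes, 23 sequences occur in more than 1 run, and none is shared by members of different runs.

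The summed level of Y-linked genes separated samples in a way that runs along with genotype. At E8.0 it was 8.55 and 70.7 CPM in the tested controls against 138 and 127 in the tested mutants. At E9.5 it was between 2.74 and 8.58 in the 4 tested controls, and 151 and 136 in the mutants Bar19 and Bar21, but 10.4 in the mutant Bar20. Bar20 is the mutant that matches the controls in this respect. The genotype counts at E9.5 and over all stages are also given from a fit that carries the Y-linked level as a covariate. No such fit was made for the other genotype comparisons, where the part of embryo sex was not tested, and at E8.0 both tested mutants lie above both tested controls in the Y-linked level.

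Wls itself checked the labels. In the members of control samples it lay at 85.5 and 68.5 CPM at E8.0, 56.4 at E8.5, and 58.6, 70.7, 72.8 and 94.5 at E9.5. In the mutants it lay at 2.45 and 7.59 at E8.0 and at 0 in the remaining 4 samples. No mutant sample reached any control sample. Over all tested samples the controls held 278 Wls UMIs in 4255654 (65.3 CPM) and the mutants 3 in 1831912 (1.64 CPM, exact Poisson 95% interval 0.338 to 4.79, which covers counting error only). The ratio of these levels was 39.9 (95% interval 13.5 to 195). At E8.5 and E9.5 the mutants had 0 Wls UMIs in 1160252, and against a limit of 3 counts over that group the controls were at least 24.3-fold higher.

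Members were mostly recognised by Tlx1. The homeobox gene Tlx1 was detected in 246 members (85.4%), the LIM homeobox gene Lhx2 in 119 (41.3%) and the basic helix-loop-helix gene Msc in 94 (32.6%). Tlx1 was the only one of the 3 in 132 members (45.8%), and all 3 were present in 42 (14.6%). Of the UMIs of these genes, Tlx1 gave 68.7%, Lhx2 17.5% and Msc 13.8%. Msc was detected in 16.4% of members at E8.0, 42.7% at E8.5 and 34.2% at E9.5. These genes define the members, so their values are a description with no test.

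The rule has soft edges at these counts. Just inside it were 47 members with exactly 2 UMIs of Msc, Tlx1 and Lhx2, and just outside were 104 cells with exactly 1 that met every other condition. For Tcf21, 68 members held exactly 1 UMI and 131 cells met the rest with 0, and for Tbx1 the corresponding numbers were 53 and 167. The limit on heart muscle genes removed 5 further cells and the bar on Wt1 and Upk3b removed 47. The median member held 0.766 heart muscle UMIs per 10000 and the highest 46.8.

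Tcf21, a helix-loop-helix regulator of branchial muscle and of mesothelial tissues, lay at 164 and 165 CPM in the E8.0 controls and 189 and 118 in the E8.0 mutants. It lay at 213 in the control and 230 in the mutant at E8.5. At E9.5 it lay at 169, 184, 312 and 161 in controls and 174, 187 and 201 in mutants. Genotypes overlapped at E8.0 and E9.5, with the control Bar4 highest of all 13 samples.

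Tlx1 was lower at E8.0 than at E9.5. Its level was 173 and 113 in controls and 176 and 209 in mutants at E8.0, and 201 and 336 in the control and the mutant at E8.5. At E9.5 controls had 227, 294, 341 and 293 and mutants 306, 365 and 347, with overlap. Each E9.5 sample lay above each E8.0 sample. Membership was set by raw UMIs of Tlx1 among others. In run 1 the median cell held between 25075 and 29940 UMIs in E8.0 samples and between 18088.5 and 22668 in E9.5 samples. The part of depth in the Tlx1 difference was not tested.

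Lhx2 and Msc varied more between samples. Lhx2 lay at 30.9, 24.2, 17.1 and 19.0 in the E8.0 samples, controls given first. At E8.5 it was 89.4 in the control and 21.9 in the mutant. At E9.5 it was 112, 60.4, 69.9 and 142 in controls and 26.3, 60.9 and 33.6 in mutants, where 1 mutant lay just above the lowest control. Msc was 90.0 in the E8.5 control and 36.5 in the E8.5 mutant. At E9.5 it was 69.6, 42.4, 69.9 and 56.7 in controls and 36.4, 9.37 and 22.4 in mutants, with no overlap. At E8.0 Msc was at most 26.9 in any sample and at 0 in 1 control. A cell needs 2 UMIs from these genes together to be a member, so the level of 1 of them in a sample is tied to the level of the others, and no test is given.

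Tbx1, the T-box gene of the pharyngeal apparatus, lay at 105 and 189 in the E8.0 controls, 213 and 140 in the E8.0 mutants, and 306 and 255 in the E8.5 control and mutant. At E9.5 it was 230, 291, 373 and 255 in controls and 253, 239 and 145 in mutants. The genotypes overlapped at both E8.0 and E9.5.

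**Figure D1:**
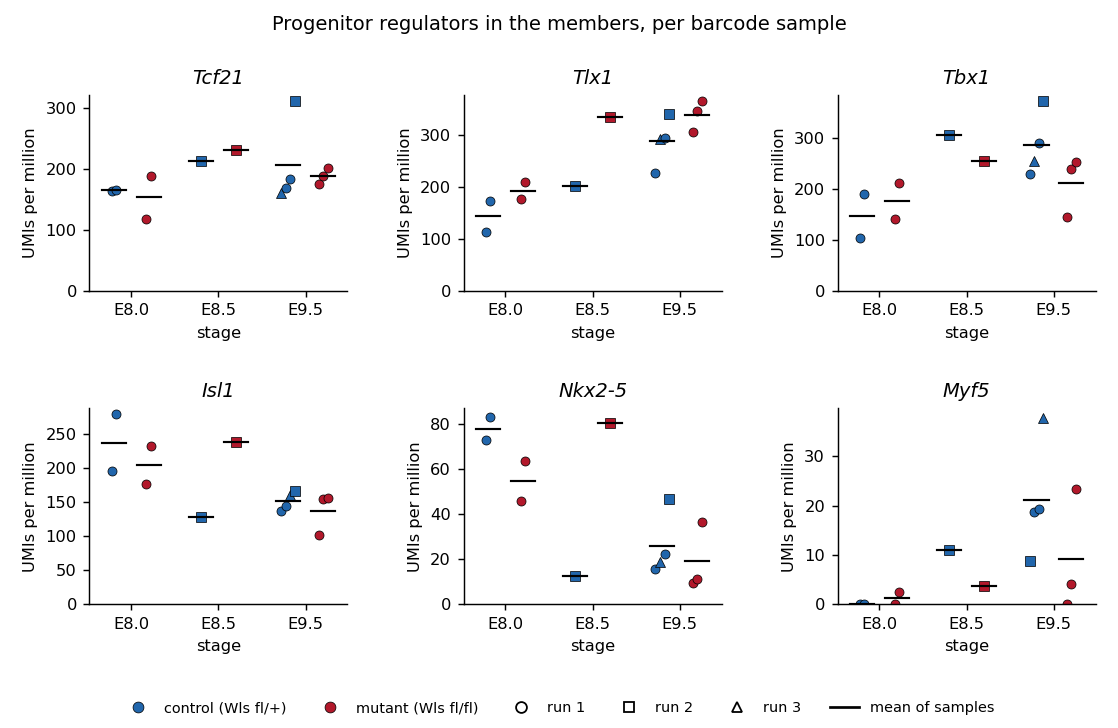
CPM, UMIs per 1000000 member UMIs, (vertical axis, from 0) of 6 regulators in each of the 13 tested barcode samples, by stage (horizontal axis); blue is control, red is mutant, the marker shape is the sequencing run and the bar is the mean of the samples. Tlx1 is higher at E9.5 than at E8.0 in each sample, and Myf5 is at 0 in 3 of the 4 E8.0 samples.

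Genes that the rule did not name placed the members within pharyngeal mesoderm. Other Tbx1-positive cells, 2438 cells that met the limits on mesothelial and heart genes but were not members and held no UMI of the epithelial gene Epcam, serve as the comparison. Each cell of at least 10000 UMIs was thinned to that depth, and cells below it were left out. The LIM homeobox gene Isl1 then had a UMI in 65.5% of 275 members and in 19.1% of 2227 other Tbx1-positive cells. Without thinning these shares were 77.1% and 28.3%, at median depths of 21221 and 22145.5 UMIs. Globin-high cells, red cell precursors that should lack the gene, showed it in 1.00% of 2102 thinned cells at a median depth of 27778 UMIs. The cardiac homeobox gene Nkx2-5 was found in 21.1% of thinned members against 5.03% and 0.714%. The shares of Isl1 and Nkx2-5 in members were above those in globin-high cells.

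The signal genes Fgf10, Fgf8 and Nrg1 were also more often detected in members. Fgf10 had a UMI in 32.7% of thinned members against 7.41% of other Tbx1-positive cells, Fgf8 in 38.2% against 14.8% and the ligand gene Nrg1 in 38.9% against 15.8%. In globin-high cells these shares were 0.523%, 0.618% and 1.19%. The pharyngeal regulator Ebf1 was detected in 60.4% of thinned members and 58.0% of other Tbx1-positive cells. These shares are descriptions, since members were chosen from the same counts.

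Per barcode sample, 6711 genes had at least 20 CPM in members or other Tbx1-positive cells, and 124 of these were higher in members in all 13 samples while 119 were lower in all 13. Among the highest were Edn1, which encodes the endothelin ligand of arch patterning, at a mean of 74.2 ± 22.5 (SD, n = 13) against 3.86, and Kazald1 at 97.9 against 3.81. The signalling regulator Rgs5 lay at 72.5 against 11.4, the homeobox gene Nkx2-6 at 37.3 against 4.18, the retinoid receptor gene Rxrg at 22.2 against 2.18, and Isl1 at 174 ± 49.5 against 40.7. The tendon regulator Scx (25.9 against 5.70), Hand2 (57.9 against 21.1) and Gata3 (36.6 against 8.80) followed the same direction in all 13 samples. Lower in members were the forkhead genes Foxd1 (32.8 against 181), Foxc2 (24.1 against 86.6) and Foxf1 (8.93 against 37.8), the mesenchymal regulator Twist1 (211 against 394), and the activin antagonist Fst (99.7 against 299). The endothelial gene Cldn5 lay at 0.0850 against 40.3. All of these values follow from the choice of members and carry no test.

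Transcripts of the muscle determination genes Myf5 and Myod1 were detected in few members, although a cell without a UMI may still express the gene. Of 17 genes of muscle commitment, 13 had a UMI in any member, and Myog, Mymk, Mymx and Myh3 had none in tested samples. Des, on the same list, had a UMI in 46.9% of thinned members and 27.3% of other Tbx1-positive cells. Myf5, which starts the muscle programme, had a UMI in 6.91% of thinned members, 1.44% of other Tbx1-positive cells and 0.190% of globin-high cells, and Myod1 in 1.45%, 0.0898% and 0%. Among E8.0 samples Myf5 lay at 0 in 3 and at 2.45 CPM in the mutant Bar27. At E8.5 it was 11 in the control and 3.65 in the mutant. At E9.5 it was 18.8, 19.3, 8.74 and 37.8 in controls and 4.05, 23.4 and 0 in mutants, which overlapped. The genotype difference at E9.5 was a log2 fold change of -1.13 (SE 0.82), which did not pass edgeR's quasi-likelihood test (adjusted p = 0.648).

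Markers of other cell types were not absent from members. Summed over the list, 9 blood genes, globins among them, lay between 1150 and 8336 CPM in control samples and between 1500 and 17706 in mutant samples, against a mean of 60275 in all other cells. The 8 endothelial markers lay between 56.7 and 240 in controls and between 113 and 354 in mutants. The 10 cardiomyocyte markers lay between 210 and 500 in controls and between 159 and 498 in mutants, with Nppa at 0. They include Myl7, Tnnt2, Ttn and Myl4, which the rule limits. The 8 neural crest markers lay between 20.2 and 94.5 in controls and between 21.9 and 75.0 in mutants. The 8 proepicardial markers lay between 161 and 323 in controls and between 148 and 252 in mutants, with Wt1 and Upk3b at 0 by rule. That list also holds Tcf21, which the rule requires and which averaged 190 CPM in members. The list mean was 214 in members, above 58.0 in other Tbx1-positive cells and 90.2 in all other cells. The 10 endoderm and epithelial markers lay between 28.4 and 307 in controls and between 103 and 442 in mutants, and the 8 somite markers between 9.45 and 115 and between 41.8 and 216. With the stages pooled, the ranges of the genotypes overlapped for each of these lists. At E8.0 alone both controls lay above both mutants for the endothelial list (234 and 240 against 175 and 233). The same held for the endoderm and epithelial list (238 and 307 against 152 and 178). The part of such RNA in the results below was not tested.

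The share of members among sorted cells did not differ detectably between genotypes. Among barcode samples with at least 20 cells it averaged 1.77% ± 0.84 (SD, n = 10) in mutants and 1.96% ± 0.84 (SD, n = 10) in controls. The difference of -0.19 percentage points gave p = 0.585 in an exact permutation test, two-sided, with labels permuted within stage and run (7200 arrangements). At E8.0 the 3 controls held 0.272%, 1.76% and 2.44% members and the 3 mutants 1.79%, 1.96% and 2.43%. At E8.5 the controls held 2.39% and 2.94% and the mutant 2.87%. At E9.5 the control share ran from 0.726% to 2.47% (median 2.15%, n = 5) and the mutant share from 0% to 2.78% (median 1.48%, n = 6). The genotypes overlapped at every stage, and the difference had opposite signs at the stages: +0.57 percentage points at E8.0 in run 1 and +0.21 at E8.5 in run 2, against -0.18, -0.71 and -0.99 at E9.5 in runs 1, 2 and 3.

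Within run 1, members made up 1.99% ± 0.54 (SD, n = 5) of sorted cells at E9.5 and 1.78% ± 0.80 (SD, n = 6) at E8.0 (exact permutation test, two-sided, p = 0.680, 200 arrangements). The median cell held between 25075 and 29940 UMIs in the E8.0 samples and between 18088.5 and 22668 in the E9.5 samples of run 1. Cells were then thinned to 10000 UMIs, and cells below that depth were left out (1096 control and 537 mutant cells, with 13 members among them). This left 160 members over all stages and runs. In run 1 the shares were then 1.48% at E9.5 and 0.636% at E8.0 (difference 0.847 percentage points, exact permutation test, two-sided, p = 0.0250). Under the other member rules and cell limits the same test gave p between 0.155 (3 UMIs of Msc, Tlx1 and Lhx2) and 0.895 (without globin-high and heart muscle cells). Without the E8.0 control Bar24 the unthinned difference was -0.09.

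**Figure D2:**
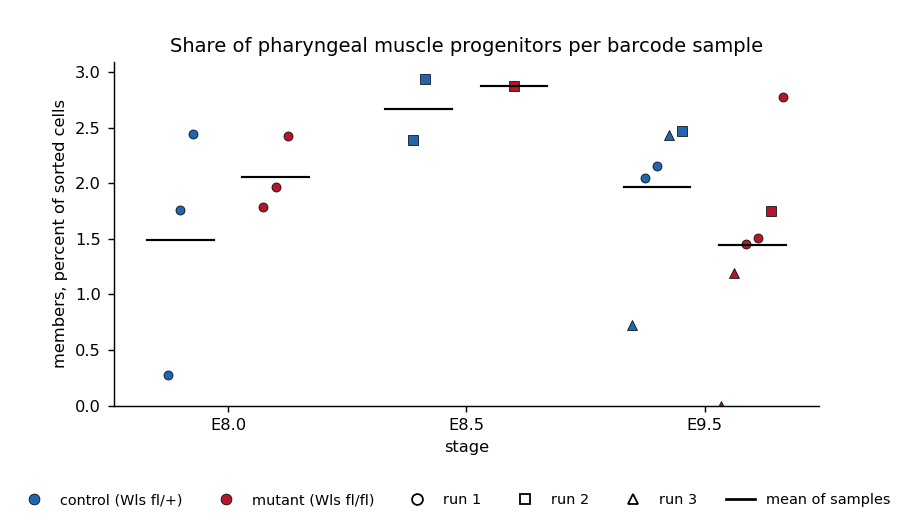
Members as a percentage of the sorted cells of a barcode sample (vertical axis), by stage and genotype (horizontal axis); blue is control, red is mutant, the marker shape is the sequencing run and the bar is the mean of the samples shown. Control and mutant points overlap at each stage, and the mutant with no member at E9.5 sits at 0%.

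The progenitors at E9.5 differed from those at E8.0 in genes such as Lin28a, Fgf8 and Ifitm1, which fell, and Prrx1, Tnni1 and Sparc, which rose. Of 6600 genes tested, 192 (2.91%) passed edgeR's quasi-likelihood test at an adjusted p under 0.05, 95 higher at E9.5 (1.44%) and 97 lower (1.47%). The fit compared 7 E9.5 samples with 4 E8.0 samples and carried genotype as a term. The E8.0 samples were all in run 1, which also held 5 of the E9.5 samples. The 11 genes named in the selection rules were fitted but left out of these counts. All 6 blood genes tested had a higher estimate at E9.5 than at E8.0 (median 1.82, 0 passed, lowest adjusted p = 0.0509), and their list summed to between 1690 and 1796 CPM at E8.0 and between 1334 and 17706 at E9.5. All 4 endothelial genes tested were lower in estimate at E8.5 than at E8.0 (median -1.98), and Pecam1 and Kdr passed. Pecam1 passed in 3 of 13 fits that left out a sample and had an estimate of 1.28 with run as a term, and Kdr lost its call without Bar1, Bar3, Bar26 or Bar29. The part of such RNA in the stage results was not tested.

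Lin28a, an RNA-binding protein gene of early embryonic timing (chromosome 4, 134003330 to 134018841, minus strand, in the GRCm38 annotation), lay at 297, 403, 326 and 364 CPM in the 4 E8.0 samples. It lay at 215 and 226 at E8.5 and between 151 and 206 in the 7 E9.5 samples. It fell by 1.02 on the log2 scale (SE 0.12, adjusted p = 5.02e-05), and no E9.5 sample reached an E8.0 sample. Of 7 genes of DNA methylation and timing tested, 3 fell and 1 rose. The de novo methyltransferase gene Dnmt3b fell by 1.2 (69.4 ± 15.1 to 30.2 ± 10.7, SD, n = 4 and 7), the mRNA-binding gene Igf2bp1 fell by 0.54 (545 to 363), and the second de novo methyltransferase gene, Dnmt3a, rose by 0.98 (50.8 to 98.7).

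The genes that fell included signals and transcription factors. Fgf8, an arch growth factor gene, lay at 252, 306, 108 and 186 at E8.0, and at 19.9, 46.3, 26.2 and 28.4 in E9.5 controls. In E9.5 mutants it lay at 103, 126 and 5.6. It fell by 2.05 on the log2 scale (SE 0.40, adjusted p = 0.00527), although 1 E9.5 mutant exceeded the lowest E8.0 sample. The interferon-induced membrane protein gene Ifitm1 fell by 3.5 (338 ± 71.5 to 26.6 ± 16.9, adjusted p = 1.07e-08), with no overlap. Otx2, a regulator of anterior head identity, fell by 2.22 (43.5 to 8.17), the nodal antagonist Lefty2 fell by 6.16 (54.6 to 0.158, with 6 of 7 E9.5 samples at 0), and the secreted Wnt antagonist Frzb fell by 2.04 (78.3 to 16.2). The E8.0 mean of Lefty2 rests mostly on the mutant Bar28, at 148 against 7.35 to 32.3 in the other E8.0 samples. The Ebf family member Ebf2 fell by 1.16 (109 to 46.3) and Rgs5 fell by 1.21 (125 to 53.2).

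Prrx1, Tnni1, Des, Sparc and Tnc were among the genes that rose. Prrx1, a homeobox gene of limb and head mesenchyme, lay at 30.9, 20.2, 36.7 and 26.6 at E8.0 and at 98.3, 50.1, 55.3, 37.8, 117, 197 and 123 at E9.5. Each E9.5 sample lay above each E8.0 sample, and the log2 fold change was 1.76 (SE 0.32, adjusted p = 0.00309). Tnni1, the slow skeletal troponin I gene, rose by 1.75 (34.7 ± 18.4 to 120 ± 29.7). It is also on the cardiomyocyte marker list, of which it was the only 1 tested. The part of heart muscle RNA in its rise was not tested. Des, which encodes the intermediate filament of muscle, rose by 1.38 (28.9 to 78.7). Sparc, a collagen-binding matrix protein gene, rose by 1.51 (95.1 to 278), and the matrix gene Tnc by 1.54 (28.3 to 83.9). Of 17 matrix genes tested, those 2 rose and 3 fell: Col2a1 fell by 1.12 (103 to 47.1), and the basement membrane genes Col4a1 fell by 0.91 (166 to 81.1) and Lama1 fell by 1.95 (52.6 to 12.9).

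Other rises included Sema3c, a guidance molecule gene of the outflow tract (3.19, from 2.43 to 32.9), Hoxb4 (3.27, from 3.99 to 40.7), Meox1 (2.97, from 4.13 to 27.3), Fabp3, a fatty-acid binding protein gene of muscle (3.02, from 7.42 to 63.9), Col25a1 (3.58, from 3.67 to 57.2), the retinoic acid-binding protein gene Crabp2 (1.36, from 83.6 to 209) and Id2 (0.63, from 467 to 709). Hoxb4 and Meox1 overlapped between stages, at 9.45 and 0 in the E9.5 control Bar9. Of the pharyngeal muscle regulators tested, 1 of 21 rose (Prrx1) and 1 fell (Ebf2), with a median log2 fold change of 0.09 against 0.00 over all genes tested. Of 15 anterior second heart field genes, 1 rose (Sema3c) and 2 fell (Fgf8 and Rgs5), with a median of -0.53. Isl1 had a log2 fold change of -0.54 (SE 0.18, adjusted p = 0.118) and Nkx2-5 of -1.41 (SE 0.41, adjusted p = 0.0684), and neither passed. Calls ranged from 110 to 228 when samples were left out in turn, lowest without the E8.0 control Bar26. Lin28a, Ifitm1, Fgf8, Frzb, Prrx1, Tnni1, Sparc and Crabp2 passed in all 13 such fits. Without Bar26 the calls of Sema3c, Meox1, Des, Dnmt3a, Dnmt3b, Col2a1 and Id2 were lost, Des also without Bar23, Bar28 or Bar29, and Id2 also without Bar28 or Bar29. The calls of Otx2 and Igf2bp1 were lost without Bar29, of Col4a1 without Bar28, and of Meox1 and Dnmt3a without Bar27.

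**Figure D3:**
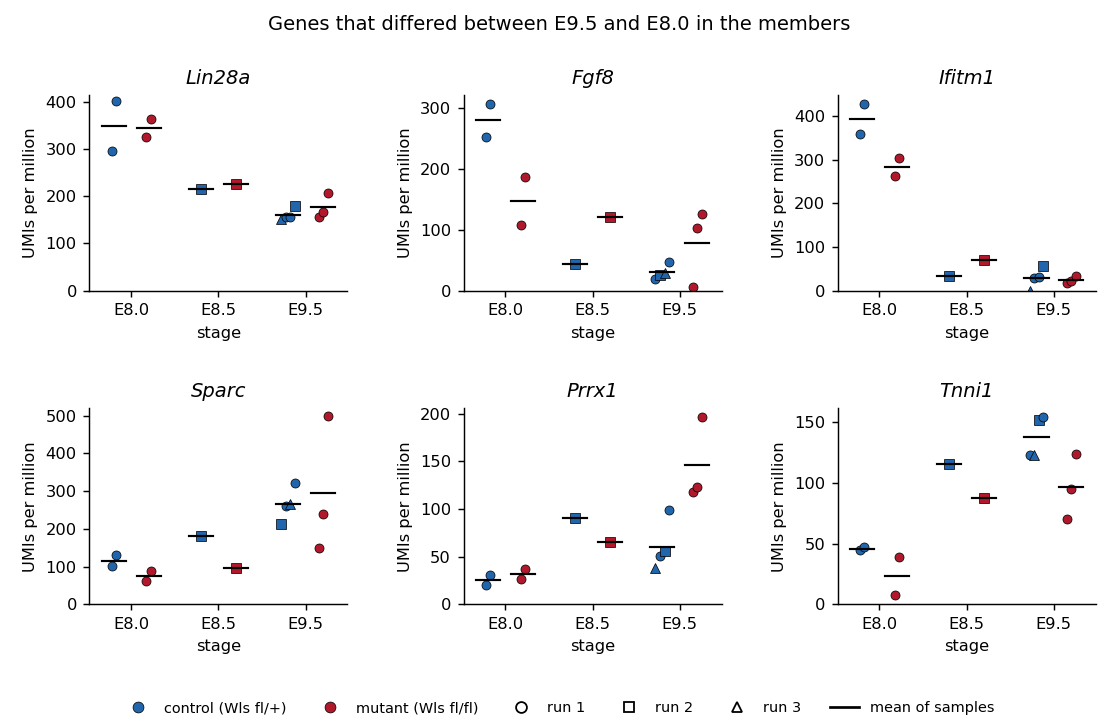
CPM, UMIs per 1000000 member UMIs, (vertical axis, from 0) of 6 genes that passed the test between E9.5 and E8.0, in each tested barcode sample by stage; blue is control, red is mutant, the marker shape is the sequencing run and the bar is the mean of the samples. Lin28a, Fgf8 and Ifitm1 are lower at E9.5 and Sparc, Prrx1 and Tnni1 higher, with overlap between the stages for Fgf8 only.

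E8.5 was represented by 1 control and 1 mutant sample, both in run 2. Against E8.0, 237 of 6600 genes (3.59%) passed, 81 higher (1.23%) and 156 lower (2.36%) at E8.5, and with run as a further term 6 passed. Without the E8.5 control Bar3, 1 gene passed, and without the E8.5 mutant Bar1, 86. Prrx1 (log2 fold change 1.65), Tnni1 (1.49) and Crabp2 (1.35) were higher and Lin28a (-0.63), Dnmt3b (-1.21), Frzb (-2.68) and Rgs5 (-1.93) lower. They had the same direction between E9.5 and E8.0, a comparison that shares the E8.0 samples. No tally over all 237 calls is given, so this likeness may follow from the choice of genes. None of these 7 genes passed without Bar3 (lowest adjusted p = 0.213, Rgs5), although each estimate kept its sign. Between E9.5 and E8.5, 21 of 6600 genes (0.318%) passed, 19 higher at E9.5 (0.288%) and 2 lower (0.0303%), and 2 with run as a further term. Among them were Rpl29 and Rplp0, ribosomal protein genes whose reads may be split between near-identical copies.

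The genotype difference at E9.5 was led by genes that cells raise when oxygen is short. These genes are commonly switched on by hypoxia-inducible factors, and many of them move a cell's energy supply from mitochondria to glucose breakdown. In the mutant members 10 of 20 low-oxygen response genes tested rose and none fell, and all 20 estimates were positive, with a median log2 fold change of 1.5 against 0.01 over all genes. Of 16 glycolysis genes tested, 6 rose and none fell, with a median of 0.83. Over all genes, 35 of 6919 passed (0.506%), 31 higher (0.448%) and 4 lower (0.0578%). Each of the 3 mutant samples lay above each of the 4 controls for 17 of the 20 low-oxygen genes and 12 of the 16 glycolysis genes, against 5.29% of all genes tested. Among markers of other cell types 0 passed, but estimates were positive for 6 of 6 blood (median 0.56), 4 of 4 somite (0.85) and 2 of 2 endoderm genes tested (0.88). Of 4 endothelial genes 3 were positive, and of 2 cardiomyocyte genes 1. The part of such RNA was not tested.

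The fit carried run as a term, which absorbs the controls Bar4 and Bar9, each alone in its run, so the estimates rest on the 3 mutants and 2 controls of run 1. The mean levels printed beside the E9.5 estimates cover all 4 controls, so their ratio can differ from the estimate. In run 1 alone, 34 genes passed. Leaving out a run 1 control, which leaves 1 control there, gave 5 calls in all without Bar22 (2 low-oxygen and 1 glycolysis gene) and 4 without Bar23 (1 and 1). Without the mutant Bar19 12 genes passed (5 and 1), and without the mutant Bar20 105 of 7674 (13 and 12). Without Bar20 each mutant lies above each control in the Y-linked level, so genotype and embryo sex cannot be told apart there. The median of the low-oxygen list stayed between 1.41 and 1.68 and that of the glycolysis list between 0.66 and 1.01 in the 7 fits that left out a sample. DESeq2's Wald test called 3 of 23 low-oxygen and 4 of 19 glycolysis genes. With the Y-linked level as a covariate, which leaves the comparison resting largely on Bar20, 6 genes passed, among them 1 of the 20 low-oxygen genes and none of the glycolysis genes. Under that covariate 18 of the 20 low-oxygen estimates were positive with a median of 1.05, and 15 of the 16 glycolysis estimates with a median of 0.41. Both lists were chosen with results over all sorted cells of these embryos in view, so their direction is not independent evidence.

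Ndufa4l2, which encodes a mitochondrial protein induced in low oxygen (chromosome 10, 127514967 to 127517154, plus strand), lay at 11, 16.7, 5.83 and 9.45 CPM in E9.5 controls. In E9.5 mutants it lay at 176, 131 and 112 in Bar19, Bar21 and Bar20. Every mutant was above every control, Bar20 included, and the log2 fold change was 3.46 (SE 0.31, adjusted p = 1.19e-04). It passed in each of the 7 fits that left out a sample and with the Y-linked covariate.

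Ddit4, an inhibitor of mTORC1 signalling (chromosome 10, 59949669 to 59951834, minus strand), lay at 48.6, 42.4, 55.3 and 18.9 in controls and 253, 459 and 157 in mutants. All mutants were above all controls (log2 fold change 2.71, SE 0.32, adjusted p = 0.00102). The stress-response gene Ier3 lay at 6.63, 2.57, 2.91 and 0 in controls and 62.7, 117 and 56.0 in mutants, again without overlap (3.99, SE 0.50, adjusted p = 0.00143). Ier3 lost its call without the control Bar23, and Ddit4 without Bar22 or Bar23. The mitophagy gene Bnip3 rose by 1.77 (30.7 ± 15.5 to 117 ± 29.1, SD, n = 4 and 3), and Ankrd37 by 2.36 (16.4 to 91.7, adjusted p = 0.0497). Bnip3 lost its call without Bar22 or Bar23, and Ankrd37 without Bar4, Bar19, Bar21, Bar22 or Bar23.

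Egln1, P4ha1, P4ha2, Ero1l and Pdk1, all on the low-oxygen list, rose beside them. Egln3, also on that list, had an estimate of 2.16 (SE 0.77) and did not pass. Egln1, the prolyl hydroxylase that marks hypoxia-inducible factors for destruction, rose by 1.29 (92.0 to 243). The collagen prolyl hydroxylase genes P4ha1 (1.27, from 71.0 to 186) and P4ha2 (1.55, from 23.1 to 97.1) and the disulfide oxidase gene Ero1l (2.16, from 20.1 to 99.4) rose without overlap between genotypes. Pdk1, which holds back pyruvate entry into mitochondria, rose by 1.31 (46.1 to 140). Egln1, P4ha1, P4ha2, Ero1l and Pdk1 each lost the call without Bar22 or Bar23. All but P4ha1 also lost it without Bar19, and P4ha2 also without Bar21. The growth factor gene Vegfa, on the same list, lay at 34.3, 50.1, 23.3 and 47.3 in controls and 95.1, 108 and 39.2 in mutants, overlapped and did not pass. In that gene Bar20 lay among the controls.

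Glucose uptake and breakdown genes followed. Slc2a3, a glucose transporter gene (chromosome 6, 122727809 to 122801640, minus strand), lay at 42.0, 43.7, 29.1 and 47.3 in controls and 164, 230 and 145 in mutants, with no overlap (2.10, SE 0.23, adjusted p = 7.09e-04). It passed in all 7 fits that left out a sample. The hexokinase gene Hk2 rose by 1.30 (162 ± 48.3 to 361 ± 139), with the mutant Bar20 at 213 below the highest control at 227. Pfkp rose by 2.47 (7.34 to 58.5), Gpi1 by 0.91 (326 to 651), Pgk1 by 0.88 (1180 to 2331) and the lactate transporter gene Slc16a3 by 1.08 (143 to 283). Hk2, Pfkp, Gpi1, Pgk1 and Slc16a3 each lost the call without Bar19, Bar22 or Bar23. Pfkp, Gpi1 and Pgk1 also lost it without Bar21.

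**Figure D4:**
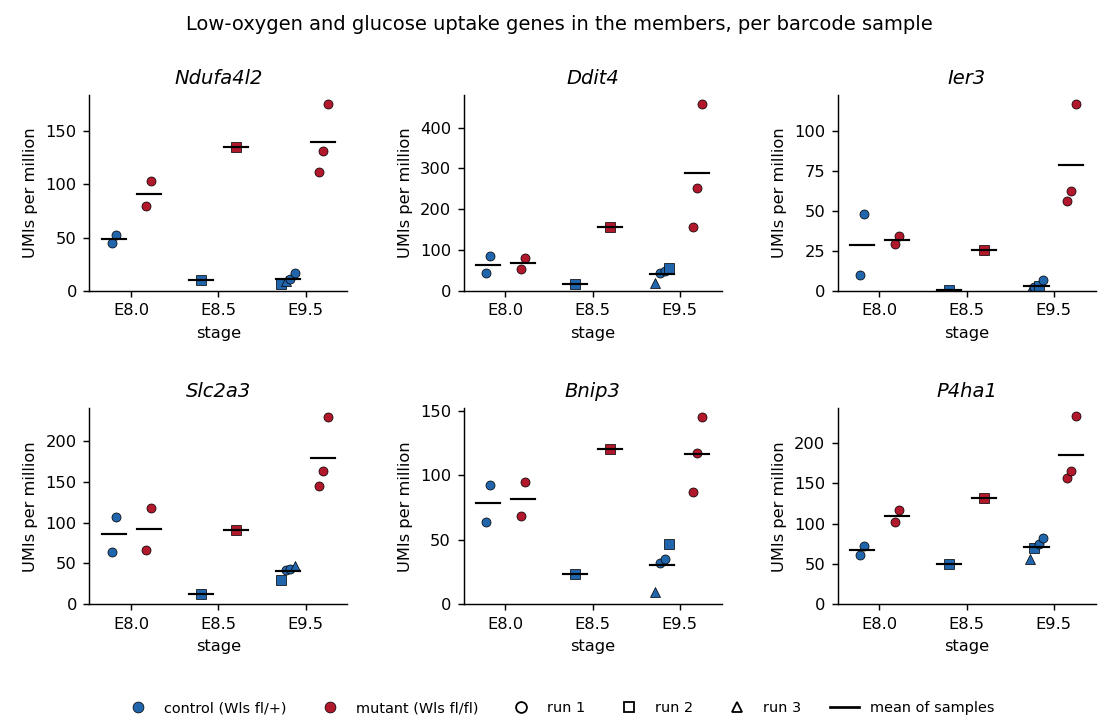
CPM, UMIs per 1000000 member UMIs, (vertical axis, from 0) of 6 low-oxygen and glucose uptake genes in each tested barcode sample by stage; blue is control, red is mutant, the marker shape is the sequencing run and the bar is the mean of the samples. At E8.5 and E9.5 each mutant sample lies above each control sample of its stage for these 6 genes, while at E8.0 the genotypes overlap for all but Ndufa4l2 and P4ha1.

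The promoters of these genes were read for ACGTG, one form of the core of the hypoxia response element, on either strand (CACGT on the other strand). A match can overlap the E-box CACGTG. Of the 16 low-oxygen and glycolysis genes that rose at E9.5, 13 had an entry in the RefSeq promoter table (GRCm38.p6), while Ndufa4l2, Ero1l and Slc2a3 had none. In 10 of the 13 the first listed promoter, from 250 bases before to 50 after the start, held the motif, against 19.7% of the first promoters of 27025 genes. It was not found in this window of Pdk1, Gpi1 and Pfkp. Another form of the core is GCGTG, which on either strand occurs 4 times in the Pfkp window, 2 times in that of Pdk1 and not in that of Gpi1. With either form counted, 12 of the 13 held a match, against 43.8% of the first promoters of all genes. These genes came from chosen lists of low-oxygen and glycolysis genes, so the contrast with all genes is not independent evidence. No contrast with list genes that did not rise is given. The 4 genes with an entry and the largest rise are shown, 3 with the first form and 1 without, 5′ to 3′ on the strand of the gene. Capitals mark the first form on either strand. Ier3 is at chr17:35821463-35821762 on the plus strand, Ddit4 at chr10:59951721-59952020 on the minus strand, Pfkp at chr13:6648722-6649021 on the minus strand and Ankrd37 at chr8:45999801-46000100 on the minus strand.
Ier3: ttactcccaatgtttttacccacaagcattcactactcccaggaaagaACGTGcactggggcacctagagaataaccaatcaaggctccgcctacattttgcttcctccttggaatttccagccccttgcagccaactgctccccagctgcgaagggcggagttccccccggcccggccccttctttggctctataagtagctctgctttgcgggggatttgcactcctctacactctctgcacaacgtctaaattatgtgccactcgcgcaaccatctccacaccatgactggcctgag
Ddit4: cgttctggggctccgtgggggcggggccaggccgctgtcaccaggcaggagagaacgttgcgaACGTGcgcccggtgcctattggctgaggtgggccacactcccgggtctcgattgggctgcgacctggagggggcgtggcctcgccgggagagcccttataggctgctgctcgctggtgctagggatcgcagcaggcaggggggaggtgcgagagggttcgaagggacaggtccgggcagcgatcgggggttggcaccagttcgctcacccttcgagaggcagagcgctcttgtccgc
Pfkp: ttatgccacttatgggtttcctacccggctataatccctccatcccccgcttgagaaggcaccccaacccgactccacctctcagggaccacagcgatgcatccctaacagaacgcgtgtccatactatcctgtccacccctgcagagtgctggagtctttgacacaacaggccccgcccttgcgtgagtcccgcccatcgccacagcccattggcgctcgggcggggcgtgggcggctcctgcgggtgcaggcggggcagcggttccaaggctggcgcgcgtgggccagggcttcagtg
Ankrd37: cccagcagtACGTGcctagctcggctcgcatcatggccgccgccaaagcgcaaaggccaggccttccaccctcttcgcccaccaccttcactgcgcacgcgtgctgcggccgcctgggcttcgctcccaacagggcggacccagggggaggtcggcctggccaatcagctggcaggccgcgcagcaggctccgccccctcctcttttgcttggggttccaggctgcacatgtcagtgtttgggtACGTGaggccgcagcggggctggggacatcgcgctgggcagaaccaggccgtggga
A match is a description of letters and not of binding.

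Of the 35 genes that passed at E9.5, 19 lay outside those lists, 15 higher and 4 lower. Among the rises, 3 chosen here after their values were seen were 2410006H16Rik (1.56, from 190 to 481, adjusted p = 0.00102), the cytochrome oxidase isoform gene Cox4i2 (2.14, from 21.6 to 150, adjusted p = 0.00734) and the demethylation enzyme gene Tet2 (1.80, from 18.8 to 59.2, adjusted p = 0.0368). Without Bar22 none of these 3 passed, and Cox4i2 and Tet2 also lost their calls without Bar19 or Bar23, and Tet2 without Bar21. The metallothionein gene Mt1 rose by 3.01 (13.6 ± 9.4 to 163 ± 124), with Bar20 at 50.4 above the highest control at 24.4, and lost its call without either control of run 1. The matrix gene Tnc lay at 61.9, 64.3, 35 and 47.3 in controls and 123, 126 and 129 in mutants, and rose by 1.05 (adjusted p = 0.0273) as the only 1 of 17 matrix genes tested. Its call was lost without Bar19, Bar21, Bar22 or Bar23. Besides Wls, 3 genes fell. Ciapin1, an iron-sulfur assembly gene, fell by 1.07 (138 to 63.2), 2810403D21Rik fell by 2.09 (134 to 53.9, with overlap), and the mitochondrial gene mt-Nd1 fell by 0.89 (3202 to 2196, with overlap). Ciapin1 lost its call without Bar19, Bar21, Bar22 or Bar23, mt-Nd1 without Bar19, Bar22 or Bar23, and 2810403D21Rik without Bar19 or Bar23. The pseudogenes Rps13-ps1 (4.88) and Rps15a-ps8 (4.22) also passed, but their reads may be shared with their parent genes, both lost their calls without Bar19, Bar22 or Bar23, both overlapped, and both changed sign with the Y-linked covariate.

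The 5 genes that define the members, among them Msc and Lhx2 with the levels given above, were left out of the genotype calls. Of 21 other pharyngeal muscle regulators tested at E9.5, 0 passed in either direction by edgeR's quasi-likelihood test (lowest adjusted p = 0.0821), with 15 positive estimates and a median log2 fold change of 0.38. The lowest belonged to Tbx3, a T-box repressor gene, at 51.9, 38.6, 20.4 and 28.4 in controls and 83.0, 108 and 89.5 in mutants. The genotypes did not overlap for Tbx3, and its log2 fold change was 1.06 (SE 0.25). Isl1 lay at 137, 144, 166 and 161 in controls and 156, 155 and 101 in mutants (0.08, SE 0.19, adjusted p = 0.925), with overlap. None of 3 muscle commitment genes and none of 15 anterior second heart field genes tested passed. Fgf8 had an estimate of 1.47 (SE 0.51, adjusted p = 0.305). With 3 mutants and 4 controls a test that misses the threshold does not show that these genes are alike.

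Canonical Wnt feedback genes were also without a call. Of 18 on the list, 6 were tested at E9.5 and 0 passed edgeR's quasi-likelihood test (lowest adjusted p = 0.581), with a median log2 fold change of -0.03. Over all stages 9 were tested and 0 passed (lowest adjusted p = 0.421), 8 with a negative estimate and a median of -0.10. Over all genes 0.506% passed at E9.5 and 0.455% over all stages, so the lack of a call in so few genes says little about them. Lef1, a transcription factor of the pathway, lay at 89.5, 90.0, 131 and 75.6 in E9.5 controls and 62.7, 79.6 and 118 in E9.5 mutants, with overlap. The feedback gene Axin2 lay between 9.45 and 40.4 in control samples and between 9.80 and 24.3 in mutant samples over all stages. Of 10 Wnt receptors and antagonists tested at E9.5, 0 passed, and the secreted antagonist Sfrp1 had the lowest adjusted p of the list at 0.199 (0.91, SE 0.26). In that list 8 of 10 estimates were positive, with a median of 0.26.

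Among 18 genes of the G2 and M phases tested at E9.5, 16 estimates were negative, with a median of -0.42, and 0 passed (lowest adjusted p = 0.0853, Cenpf, -0.69). At E8.0, 17 of the 18 estimates were positive, with a median of 0.24, and 0 passed (lowest adjusted p = 0.429). The E9.5 estimate was below the E8.0 estimate for all 18 in the model of both stages (median difference -0.62), and none of these differences passed (lowest adjusted p = 0.253). Of 18 S phase genes at E9.5, 13 were negative (median -0.18) and 0 passed. Mki67, a proliferation marker, lay at 350, 299, 216 and 227 in controls and 231, 197 and 190 in mutants, with overlap.

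At E8.0 the medians of the low-oxygen and glycolysis lists lay near 0. Of 15 low-oxygen genes tested, 0 passed edgeR's quasi-likelihood test (median log2 fold change 0.10, lowest adjusted p = 0.751), and of 15 glycolysis genes 0 passed (median 0.01). Ndufa4l2 lay at 45.1 and 52.4 in the 2 controls and 103 and 79.7 in the 2 mutants, Ddit4 at 42.8 and 84.7 against 53.9 and 79.7, and Slc2a3 at 107 and 64.5 against 66.1 and 118. The genotypes overlapped for Ddit4 and Slc2a3. For Ndufa4l2 both mutants lay above both controls, as they did for 17% of all genes tested. Over all genes 6 of 5359 passed (0.112%), 3 in each direction (0.056%), and 295 lay at an unadjusted p under 0.05. Malat1, a nuclear long noncoding RNA, rose by 0.76 (3465 and 3149 in controls, 5506 and 5675 in mutants). Gm36266 (4.12) and Gm49016 (4.08) were higher, and Wls fell by 4.01 and the ribosomal protein gene Rpl34 fell by 1.06, whose reads may be shared with processed copies. The remaining gene, the X-inactivation RNA Xist, was lower in mutants. Malat1 and Rpl34 passed in all 4 fits that left out a sample, while Wls lost its call without Bar26 or Bar27, Gm36266 without Bar27, and Gm49016 without Bar26, Bar27 or Bar28.

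The stages were compared with each other in 1 model. For the genotype effect at E9.5 minus that at E8.0, 0 of 7376 genes passed (0%) by edgeR's quasi-likelihood test, 474 had an unadjusted p under 0.05, and DESeq2's Wald test also called 0, with 114 unadjusted. The lowest adjusted p was 0.132. All 20 low-oxygen genes had a larger estimate at E9.5, with a median difference of 1.43 on the log2 scale. The low-oxygen genes Ndufa4l2 (2.51, SE 0.47) and Egln1 (1.67, SE 0.33) and the glycolysis list gene Slc2a3 (2.14, SE 0.42) were among the 5 genes of lowest p in the whole table, and did not pass. This test over all samples made no call. Without the mutant Bar20, 16 of 7823 genes passed, among them 5 low-oxygen genes (Ddit4, Egln1, Ero1l, Higd1a and Ndufa4l2) and 3 glycolysis genes (Slc16a3, Slc2a1 and Slc2a3). In that fit every mutant lies above every control in the Y-linked level, so genotype and embryo sex cannot be told apart. Without the low-count filter 55 of 21916 genes passed, among them 6 low-oxygen and 3 glycolysis genes. In controls the mean level was lower at E9.5 than at E8.0 for 17 of the 20 low-oxygen genes (all but Vegfa, P4ha1 and Kdm3a) and 15 of the 16 glycolysis genes (all but Hk1), against 46.1% of 6913 genes, as a description with no test. In the stage fit over both genotypes 10 of 18 low-oxygen estimates were positive (median 0.11) and 3 of 16 glycolysis estimates (median -0.28). In controls Ndufa4l2 averaged 48.8 at E8.0 and 10.8 at E9.5, Slc2a3 85.7 and 40.5, and Bnip3 78.4 and 30.7. In mutants the means of these genes were 91.3 and 140, 91.9 and 180, and 81.7 and 117, in the same order.

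**Figure D5:**
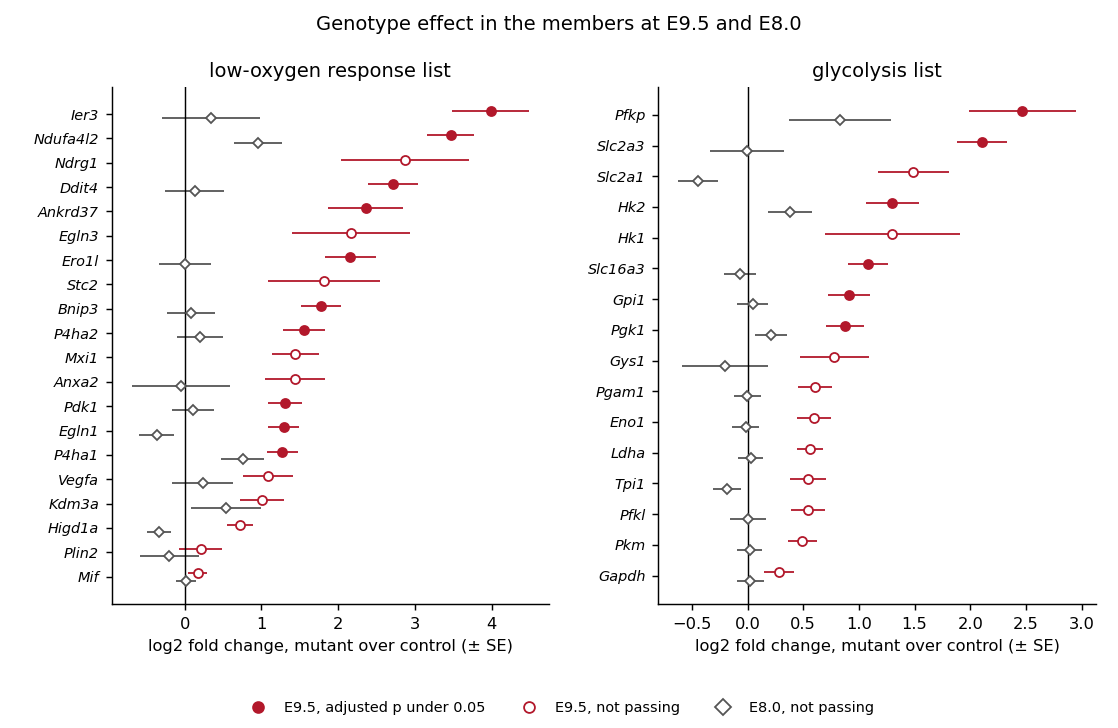
Log2 fold change of mutant over control members (horizontal axis, with SE bars) for the low-oxygen response list on the left and the glycolysis list on the right, at E9.5 (red circles, filled where the adjusted p is under 0.05) and at E8.0 (open diamonds, none of which passed). The E9.5 estimates are all positive and 10 and 6 of them passed, while the E8.0 estimates lie on either side of 0.

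The E8.5 pair, 1 control and 1 mutant sample of run 2, has no replicate and no test. Its Y-linked levels were alike, at 3.41 and 4.96 CPM. Ndufa4l2 lay at 135 in the mutant (exact Poisson 95% interval 95.1 to 186) and 10.3 in the control (5.77 to 17). Ddit4 lay at 157 (114 to 211) against 17.2 (11.1 to 25.4), and Slc2a3 at 91.2 (59.1 to 135) against 12.4 (7.33 to 19.6). Of the 16 low-oxygen and glycolysis genes that rose at E9.5, all 16 were higher in this mutant than in this control, against 47.8% of 6913 genes. The intervals, which cover counting error only, do not meet for 7 of the 10 low-oxygen genes and all 6 glycolysis genes, against 3.36% of the 6913 genes, counted with the mutant above the control. They meet for Ankrd37, Ero1l (32.8, 15 to 62.4, against 15.8, 10 to 23.7) and P4ha2.

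Over all stages together, with stage and run as terms, 34 of 7466 genes passed (0.455%), 24 higher (0.321%) and 10 lower (0.134%) in mutants. Low-oxygen genes made up 6 of these (of 20 tested, all 20 positive, median 1.10 against 0.02 over all genes) and glycolysis genes 4 (of 16, all positive, median 0.48). Ndufa4l2 (2.64, SE 0.33, adjusted p = 6.12e-04) and P4ha1 (1.15, SE 0.16, adjusted p = 0.00138) passed in each of 13 fits that left out 1 sample. With the Y-linked covariate 6 genes passed and none of the low-oxygen or glycolysis genes, with 19 of 20 low-oxygen estimates positive and a median of 0.89. Without Bar22, and likewise without Bar23, the E9.5 controls of run 1, 4 genes passed. Most other calls named for all stages were also lost without the E8.5 samples Bar1 or Bar3, or without the E9.5 mutants Bar19 or Bar21.

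Further rises over all stages were in Cox4i2 (1.74, from 37.8 to 128), Tet2 (1.54, from 16.7 to 44.4) and the lipoprotein receptor gene Vldlr (1.52, from 15.7 to 51.4). Beside Wls, the telomerase inhibitor gene Pinx1 fell by 0.92 (79.7 to 41.6), the chromatin remodelling gene Baz1a fell by 0.92 (59.0 to 30.7), Ciapin1 fell by 0.90 (145 to 78.8), the cyclin gene Ccne1 fell by 0.77 (131 to 72.6), and Cycs, which encodes cytochrome c, fell by 0.67 (233 to 156). Ccne1 was the only 1 of 18 S phase genes that passed. Of 23 pharyngeal muscle regulators 0 passed (median 0.17, lowest adjusted p = 0.143), and of 13 BMP pathway genes 0 passed although all 13 estimates were positive (median 0.31, lowest adjusted p = 0.254).

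The genotype effect in members was then set against that in other Tbx1-positive cells of the same barcode samples. Of 12567 genes tested, 5 differed (0.0398%), 3 with a higher (0.0239%) and 2 with a lower (0.0159%) effect in members, and 758 had an unadjusted p under 0.05. DESeq2's Wald test called 0, with 395 unadjusted. Of 23 low-oxygen genes 0 passed (median difference -0.23 on the log2 scale, 6 positive, lowest adjusted p = 0.698), and of 18 glycolysis genes 0 passed (median -0.05), against a median of -0.03 over all genes. No larger rise of low-oxygen genes in members than in other Tbx1-positive cells was thus detected. The 5 genes were Gm36737 (3.80), the adult globin gene Hbb-bs (2.02), the neurotrophin receptor gene Ntrk2 (1.92), the myosin gene Myo1c (-1.82) and Hapln1 (-0.97), which encodes a hyaluronan link protein. Without the E9.5 control Bar9, the only tested sample of run 3, none passed. The fit held no term for a difference of the cell groups between runs.

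Hbb-bs rests on 1 cell: 669 of the 671 Hbb-bs UMIs in the 24 members of the mutant Bar19 were in a single cell of 37732 UMIs, and the median of the others was 0. Without Bar19 the difference was -0.04. Ntrk2 lay at 2.38 and 4.03 in E8.0 controls and 22 and 11.4 in E8.0 mutants, 28.2 and 29.2 in the E8.5 control and mutant, and at E9.5 at 23.2, 20.6, 20.4 and 28.4 in controls and 22.3, 51.5 and 44.8 in mutants. The genotypes did not overlap at E8.0 and did at E9.5. Gm36737 rests on the mutants Bar28 and Bar1, at 83.5 and 43.8, against at most 9.37 in any other sample.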

How the data were processed

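Single-cell RNA was counted as UMIs per gene and cell. Raw UMI counts were deposited, made by the authors with kallisto and bustools 0.46.1 on GRCm38 per the labels and the submitters' processing notes, which also name Cell Ranger; the authors demultiplexed the sample barcodes, and how cells were filtered is not given in the sources used here. Stage, genotype and run of each cell came from the deposited cell table, which calls the genotypes wildtype and knockout; that these are Wls fl/+ and fl/fl was assumed. The deposited counts, summed over members, came to between 105784 and 1454764 UMIs per tested sample. Members, gene lists and alternatives were chosen with earlier results of these data known. Member counts were summed per barcode sample (at least 10 members) and tested with edgeR 4.0.16 (R 4.3.3; filterByExpr, TMM, glmQLFit, glmQLFTest, two-sided) with Benjamini-Hochberg adjustment over all genes tested at 0.05. Genotype was fitted with stage and run as terms, and stage with genotype. The comparison of members with other Tbx1-positive cells carried a block for each barcode sample and cell group by stage, with no cell group by run term. The 11 genes named in the selection rules were left out of the adjustment. Shares were compared with exact permutation tests (scipy 1.17.1) over samples of at least 20 cells. The fits were tested on simulated counts. The genes named were drawn from those that passed with at least 20 CPM (UMIs per 1000000) in the higher group, as the 8 largest rises and the 8 largest falls of each test. To these were added every list gene that passed, Wls, the rule genes and up to 3 abundant genes of a list. Not every gene drawn in this way is named in the text, for example Slc16a3 and Clu at E9.5 against E8.0. Named after their values were seen were Tbx3, Vegfa, Lef1, Axin2, Mki67, Sfrp1, Fgf8, Isl1 and Myf5 as non-passing genes, 2410006H16Rik, Cox4i2 and Tet2 at E9.5, and genes that mark members against other cells. No doublet caller was run, and cells over 50000 UMIs were left out in an alternative. Log2 fold changes are edgeR's, and intervals are exact 95% Poisson intervals. Alternatives were DESeq2 1.42.0 (its test and its size factors), no low-count filter, other member limits and rules, run 1 alone, a Y-linked covariate, a run term, thinning to 10000 UMIs and leaving out each sample. An E7.5 control sample of 28 cells held no member and was left out.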

Additional observations from a re-analysis of the deposited data

Results flagged for a closer look

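In groups of 4 to 10 samples, the gap of the highest or lowest sample to its nearest neighbour was compared with the range of its group. In 40 groups 6 values stood apart, all in the samples Bar9 and Bar4. Most groups were the same 4 E9.5 controls, over genes named mainly from the genotype tests. The rate of about 1 in 20 groups for independent groups therefore does not apply. In the E9.5 control Bar9 the share of members was 0.726% against 2.04% to 2.47% in the other controls. Bar9 also had the lowest Ero1l, at 9.45 CPM, and the highest Mrpl20, at 435. It is the tested sample with the fewest member UMIs, at 105784. In the E9.5 control Bar4, the only tested E9.5 sample of run 2, Tcf21 lay at 312, Rps13-ps1 at 216 and Rps15a-ps8 at 227, each above the other E9.5 controls. The part of depth and of run in these values was not tested.

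For 5 genes the genotype effect in members differed from that in other Tbx1-positive cells by edgeR's quasi-likelihood test (adjusted p = 0.0373 each): Gm36737 by 3.80, Hbb-bs by 2.02, Ntrk2 by 1.92, Myo1c by -1.82 and Hapln1 by -0.97 on the log2 scale. In mutant members Myo1c averaged 17.6 and in control members 29.8 CPM, and Hapln1 59.4 and 67.7.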

How the results depend on the processing

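Calls over all stages (34) became 168 without the low-count filter, 21 with at least 5 and 172 with at least 20 members per sample (a limit that here and below leaves 1 mutant, assumed to vary like the controls), 8 in run 1 alone and 6 with the Y-linked covariate. Calls at E9.5 (35) became 16 by DESeq2's test, 136 without the filter, 111 with at least 20 members, 16 when 3 UMIs of Msc, Tlx1 and Lhx2 were required, 23 without the Tbx1 condition and 6 with the Y-linked covariate. Those at E8.0 (6) became 2 by DESeq2 and 42 without the filter, and the stage difference of the genotype effect (0) became 55 without it. Stage calls became 381 without the filter, 56 with 3 UMIs and 391 without Tbx1 (E9.5 against E8.0, 192); 395, 50, 526 and, with run as a term, 6 (E8.5 against E8.0, 237); and 122 by DESeq2, 185 without the filter, 5 with 3 UMIs and 2 with run (E9.5 against E8.5, 21). The 5 genes that differed from other Tbx1-positive cells became 0 by DESeq2, 44 without the filter, 36 with at least 20 members, 1 without members over 50000 UMIs and 22 with 3 UMIs. The causes were not tested.

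Leaving out each sample gave 4 to 53 calls over all stages, 4 (without Bar23) to 105 (without Bar20) at E9.5, 2 to 32 at E8.0, 0 to 16 for the stage difference, 110 to 228, 1 to 395 and 2 to 267 for the stages in the order above, and 0 to 15 for the cell groups. The share difference ran from -0.38 to 0.0069 percentage points between genotypes and from -0.088 to 0.35 between stages. It was 0.566 within E8.0 of run 1 and 0.208 within E8.5 of run 2, and the stage difference was 0.847 after thinning.

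Signs changed for Rps13-ps1 (-2.67) and Rps15a-ps8 (-0.89) with the Y-linked covariate at E9.5, for Wls (0.34) in the stage difference with 3 UMIs, for Hbb-bs (-0.035 without Bar19, up to 2.5 without Bar21), and with run as a term for Hist2h2ac (-0.21), 2810403D21Rik (0.019), Egr1 (1.23), Col2a1 (0.094), Fbn2 (0.18) and Pecam1 (1.28) at E8.5 against E8.0 and Ppp1r16b (-0.38) at E9.5 against E8.5. The low-oxygen median stayed between 1.05 and 1.83 at E9.5 over all alternatives run. At least 20 members could not be fitted for E8.0, the stage difference and the stages, nor 3 UMIs for E8.0. No paired analysis was possible because the barcodes carry no number shared between genotypes. The few members per sample, 10 to 60, limit what these tests can detect.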

Other observations

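Of 5 anterior Hox genes tested over all stages, all 5 genotype estimates were positive, with a median log2 fold change of 0.96, and 0 passed edgeR's quasi-likelihood test (lowest adjusted p = 0.179). Hoxb4 lay at 34.3, 41.1, 14.6 and 9.45 in E9.5 controls and 50.6, 84.3 and 50.4 in E9.5 mutants, without overlap (0.72, SE 0.31, adjusted p = 0.408). At E9.5 each mutant lay above each control for 5.29% of all genes tested. Of 18 cranial mesenchyme genes tested over all stages, 15 estimates were positive with a median of 0.51, and 0 passed (lowest adjusted p = 0.145). At E9.5, 9 of 15 were positive and 6 negative, with a median of 0.67, and 0 passed (lowest adjusted p = 0.187). Prrx1 lay at 98.3, 50.1, 55.3 and 37.8 in E9.5 controls and 117, 197 and 123 in E9.5 mutants, without overlap (0.96, SE 0.28, adjusted p = 0.204).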
